A study of Mus musculus with 6 samples.

Results

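Tuft cells are rare chemosensory cells of the intestinal epithelium, and 10 genes of their specification and taste-type signalling are described here in crypts of the mouse small intestine, where stem cells, their proliferating descendants and Paneth cells lie. The genes were chosen by exact symbol from the 17526 genes of the count table: Pou2f3, Gfi1b, Dclk1, Trpm5, Plcb2, Gng13, Gnb3, Avil, Il25 and Cd24a. All 10 were in the table and 8 passed the filter on low counts and were tested, since Gnb3 and Il25 had only a few reads in each library. The 3 knockout libraries came from crypts labelled VKO, with the genotype given as an epithelial knockout of Fpr2, the gene of formyl peptide receptor 2. The 3 floxed control libraries came from crypts of Fpr2f/f mice, whose genotype label reads WT, so the controls carry the floxed allele. The labels name neither the driver of the deletion nor the age, sex or background strain, and do not tie each library to an animal of its own, so the spread behind the p-values may be partly or wholly technical. Fpr2 itself was not analysed here, and the genotypes were therefore not checked on the targeted gene.

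Tuft cells sense luminal metabolites through a pathway shared with taste cells: a G protein releases its beta and gamma subunits, phospholipase C beta raises calcium, and the calcium opens the cation channel Trpm5. The transcription factor Pou2f3 is required for the lineage. In the gut the cells are known for secreting interleukin 25, which sets off a type 2 immune response to parasites.

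Total estimated counts were 16859902, 16542933 and 16827977 in knockouts 1, 2 and 3. In floxed controls 1, 2 and 3 they were 11108511, 16695304 and 12075398. The groups gave an exact two-sided permutation p of 0.2, where 3 libraries against 3 cannot go below 0.1. Floxed controls 1 and 3 were thus the shallowest libraries, and floxed control 2 lay within the knockouts' range. Epithelial markers were high in each library. Epcam, an adhesion protein of epithelial cells, stood at 1352, 1351 and 1338 CPM in knockouts 1, 2 and 3 and at 1048, 1257 and 1104 CPM in floxed controls 1, 2 and 3. CPM values are read counts scaled to a common library size with edgeR's TMM factors. Floxed controls 1 and 3 stood apart from floxed control 2 on lymphocyte markers. The 12 T cell and intraepithelial lymphocyte genes in the table, none of them at 0 in all libraries, summed to 65.5, 78 and 86.1 CPM in knockouts 1, 2 and 3 and to 277.8, 74.7 and 234.5 CPM in floxed controls 1, 2 and 3. Floxed control 2 and knockout 1 stood apart from the other 4 libraries on clock genes. Per2, for instance, was at 22.4 CPM in knockout 1 and 14.6 CPM in floxed control 2, and between 39.1 and 71.9 CPM in the other 4.

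Mean transcript levels of each of the 8 testable tuft cell genes were lower in knockout crypts, with log2 fold changes (knockout over floxed control) between -1.26 for Gng13 and -0.99 for Trpm5. All 8 were negative, as were 51.9% of all genes tested. Their median was -1.10, while the median over all 12943 genes tested was -0.013. None passed edgeR's quasi-likelihood test with Benjamini-Hochberg adjustment over all genes: 0 of 8 had an adjusted p under 0.05 (0.00773% of all genes tested were called lower, that is 1 gene). At an unadjusted p under 0.05, 8 of 8 were lower (9.63% of all genes), and DESeq2, an alternative count model, called 5 of 8 lower at an adjusted p under 0.05 (2.08% of the genes to which it gave an adjusted p). In 6 of 8, every knockout library lay below every floxed control, as in 10.3% of all genes; Dclk1 and Trpm5 overlapped. On library totals without TMM the groups were separate for 3 of 8 and the median was -0.90, on a scale where the median of all genes was 0.20. The share of all genes with separate groups on that scale was not counted, so the 3 of 8 has no background. Markers of the other secretory lineages also had negative log2 fold changes. These were 13 of 13 Paneth cell markers (median -1.69, 13 called lower by DESeq2), 12 of 12 goblet cell markers (median -0.87, 6 called lower by DESeq2) and 16 of 16 enteroendocrine markers (median -0.79, 4 called lower by DESeq2), with 0 called by edgeR at an adjusted p under 0.05 in each list; at an unadjusted p under 0.05, edgeR had 13, 10 and 13 of them lower. The part of the other secretory cells in the tuft cell genes' difference was not tested. In bulk RNA, fewer tuft cells and less RNA per tuft cell cannot be told apart.

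**Figure D1:**
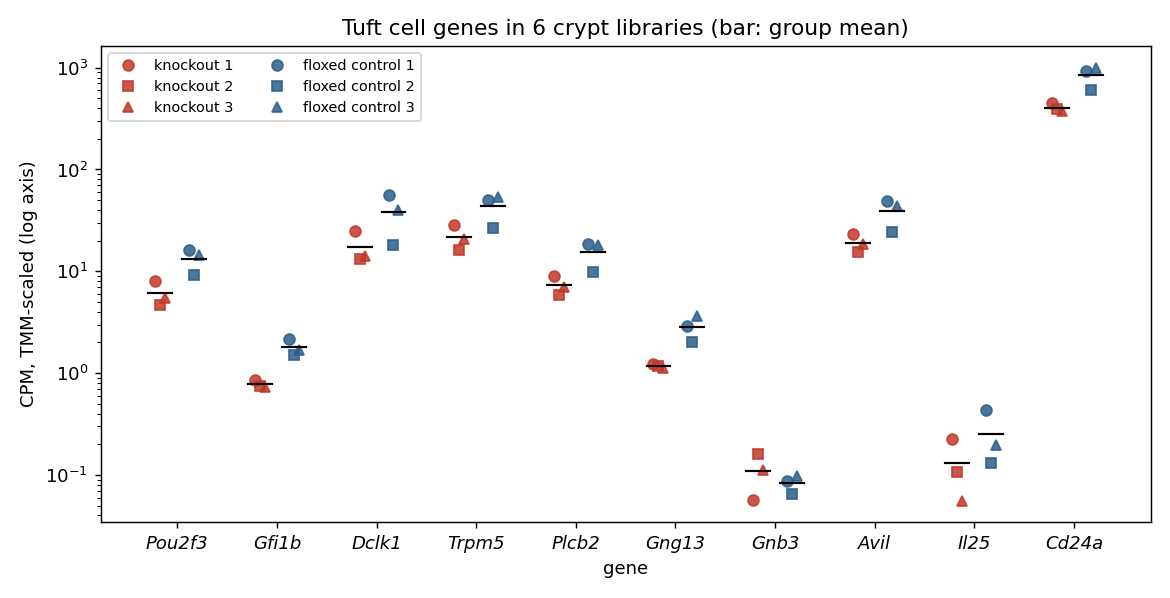
TMM-scaled CPM (log axis) of the 10 tuft cell genes in knockout (red) and floxed control (blue) libraries; symbols mark the replicate and bars the group mean. For 6 genes all knockout libraries lie below all floxed controls, while Dclk1 and Trpm5 overlap and Gnb3 and Il25 rest on a few reads.

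Pou2f3 (gene 18988, chr9:43123927-43205755, minus strand, GRCm38.p6) encodes the POU-domain transcription factor that specifies tuft cells. It stood at 8.07, 4.67 and 5.49 CPM in knockouts 1, 2 and 3 and at 16.2, 9.25 and 14.6 CPM in floxed controls 1, 2 and 3. Every floxed control was above every knockout, though floxed control 2 lay closer to knockout 1 than to the other controls. The means were 6.07 ± 1.78 CPM in knockouts and 13.3 ± 3.62 CPM in floxed controls (SD, n = 3 each), with a log2 fold change of -1.13 ± 0.28 (SE; edgeR adjusted p = 0.136, DESeq2 adjusted p = 0.0212).

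Gfi1b (gene 14582, chr2:28609450-28621982, minus strand) encodes a zinc-finger repressor known from erythroid and megakaryocytic cells and used as a tuft cell marker in the gut. It had only 15, 14 and 13 reads in knockouts 1, 2 and 3 and 25, 23 and 17 reads in floxed controls 1, 2 and 3. In CPM these were 0.846, 0.751 and 0.728 in the knockouts and 2.18, 1.51 and 1.67 in the floxed controls. The groups did not overlap, and the log2 fold change was -1.19 ± 0.36 (edgeR adjusted p = 0.192, DESeq2 adjusted p = 0.278). The 11 erythroid and megakaryocyte markers in the table summed to between 3.49 and 5.37 CPM in knockouts and between 6.69 and 19.1 CPM in floxed controls. Of the 5 tested, the 3 haemoglobin genes had negative log2 fold changes, while the erythroid factor Klf1 (0.32 ± 0.40) and the megakaryocyte integrin Itga2b (0.061 ± 0.47) had positive ones. Gata1, a defining factor of those lineages, was at 0 CPM in every library but floxed control 2, where it was at 0.0656 CPM. The part of blood cells in the Gfi1b values was not tested.

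Dclk1 (gene 13175, chr3:55242303-55539068, plus strand), a microtubule-associated kinase and the customary tuft cell marker, varied most between libraries. It stood at 24.6, 13.1 and 14.2 CPM in knockouts 1, 2 and 3 and at 55.5, 18.3 and 40.1 CPM in floxed controls 1, 2 and 3. Knockout 1 was above floxed control 2. The log2 fold change of -1.13 ± 0.37 (edgeR adjusted p = 0.217, DESeq2 adjusted p = 0.0615) became -0.73 without floxed control 1 and -0.020 ± 0.36 without floxed controls 1 and 3. Of its 15296 exonic bases, 114 are shared with genes on the opposite strand.

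Avil (gene 11567, chr10:127000065-127020994, plus strand) encodes advillin, an actin-bundling protein of the villin family found in the microvillar tuft. Its levels were 23.4, 15.3 and 18.5 CPM in knockouts 1, 2 and 3 and 48.7, 24.5 and 43.9 CPM in floxed controls 1, 2 and 3. The groups did not overlap, with floxed control 2 just above knockout 1. The means were 19.1 ± 4.04 and 39 ± 12.9 CPM in knockouts and floxed controls (SD, n = 3 each), and the log2 fold change was -1.03 ± 0.26 (edgeR adjusted p = 0.141, DESeq2 adjusted p = 0.0187). Of its 3398 exonic bases, 165 are shared with Tsfm on the opposite strand, and the strand use of the counting is not given in the sources used here. Tsfm, a mitochondrial elongation factor gene, had a log2 fold change of 0.33 ± 0.25.

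Trpm5 (gene 56843, chr7:143071529-143094642, minus strand) encodes the calcium-activated channel that ends the taste cascade. It stood at 28.2, 16.4 and 20.7 CPM in knockouts 1, 2 and 3 and at 50.7, 26.4 and 53.2 CPM in floxed controls 1, 2 and 3. As with Dclk1, knockout 1 lay above floxed control 2. The log2 fold change was -0.99 ± 0.28 (edgeR adjusted p = 0.179, DESeq2 adjusted p = 0.0390). Of its 6398 exonic bases, 220 are shared with Tssc4 on the opposite strand, which had a log2 fold change of 0.12 ± 0.22.

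Plcb2 (gene 18796, chr2:118705003-118728661, minus strand) encodes the phospholipase C of the cascade and is also expressed in blood cells. It stood at 9.03, 5.90 and 6.94 CPM in knockouts 1, 2 and 3 and at 18.3, 9.90 and 18.2 CPM in floxed controls 1, 2 and 3. The groups did not overlap, but knockout 1 and floxed control 2 were close. Its log2 fold change was -1.08 ± 0.27 (edgeR adjusted p = 0.141, DESeq2 adjusted p = 0.0256). T cell and intraepithelial lymphocyte markers were likewise high in floxed controls 1 and 3, with the sums given above. In floxed control 2 they summed to 74.7 CPM, within the knockouts' range. The 14 myeloid and mast cell genes in the table summed to between 62.1 and 119.9 CPM in knockouts. In floxed controls they summed to between 119 and 139.9 CPM. The part of blood cells in the Plcb2 values was not tested.

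Gng13 (gene 64337, chr17:25717172-25719102, plus strand) encodes the G-protein gamma subunit of taste cells. It had 1.24, 1.18 and 1.12 CPM in knockouts 1, 2 and 3 and 2.88, 2.03 and 3.64 CPM in floxed controls 1, 2 and 3, from 20.2 to 22.2 estimated reads per knockout and 30.8 to 37 per floxed control. The knockouts differed little from each other, and all lay below the floxed controls. The log2 fold change was -1.26 ± 0.35 (edgeR adjusted p = 0.170, DESeq2 adjusted p = 0.130). Of its 773 exonic bases, 399 are shared with Chtf18 on the opposite strand. If the counting ignored the strand, which the sources used here do not say, reads of the 2 genes cannot be fully told apart. Chtf18, a replication clamp-loader gene, had a log2 fold change of 0.33 ± 0.21, opposite in sign to Gng13.

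The cascade's beta subunit Gnb3 (gene 14695, chr6:124834240-124840275, minus strand) and the cytokine Il25 (gene 140806, chr14:54932695-54935837, plus strand) were near the limit of detection. Gnb3 had 1, 3 and 2 reads in knockouts 1, 2 and 3 and 1 read in each floxed control. Pooled on library totals, this was 0.119 CPM in knockouts and 0.0752 CPM in floxed controls, a ratio of 1.59 whose exact 95% interval ran from 0.339 to 9.81. Il25 had 4, 2 and 1 reads in knockouts 1, 2 and 3 and 5, 2 and 2 reads in floxed controls 1, 2 and 3, a ratio of 0.618 with an interval from 0.195 to 1.86. These intervals cover counting error only, and a difference of the size seen in the other tuft cell genes was not detectable at this depth.

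Cd24a (gene 12484, chr10:43579169-43584265, plus strand) encodes a glycosylphosphatidylinositol-anchored surface protein, high on tuft cells but present on Paneth and enteroendocrine cells and on lymphocytes too. It stood at 449.9, 391.9 and 374.5 CPM in knockouts 1, 2 and 3 and at 926, 603.8 and 1002 CPM in floxed controls 1, 2 and 3. Every floxed control was above every knockout. Its mean was 405.4 ± 39.5 CPM in knockouts and 843.9 ± 211.3 CPM in floxed controls (SD, n = 3 each). The log2 fold change was -1.06 ± 0.23 (edgeR adjusted p = 0.119, DESeq2 adjusted p = 0.000316), and both tools gave it the lowest p of the 8. Summed Paneth cell and enteroendocrine markers were also lower in every knockout than in every floxed control. The 13 Paneth cell markers in the table summed to between 26308 and 40307 CPM in knockouts and between 77404 and 153271 CPM in floxed controls. The 16 enteroendocrine markers summed to between 431.9 and 637.7 CPM in knockouts and between 725.8 and 1125 CPM in floxed controls. Their highest knockout sum was in knockout 3, where Cd24a was lowest. T cell and intraepithelial lymphocyte genes summed to 74.7 CPM in floxed control 2, within the knockouts' range of 65.5 to 86.1 CPM. Of B and plasma cell markers, 7 of 7 tested had negative log2 fold changes (51.9% of all genes), with a median of -2.015. The part of these cells in the Cd24a values was not tested.

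Promoter sequence was at hand for 6 of the 10 genes, with 8 annotated starts. It is shown because Pou2f3 and Gfi1b are transcription factors with known motifs. Whether either factor acts on these genes was not tested. The 250 bases before each start, from RefSeq for GRCm38.p6, were searched on both strands for the POU octamer ATGCAAAT, its first 7 letters ATGCAAA, the Gfi-family core AAATCA and the TATA box TATAAA. The full octamer and the TATA box were in 0 of 8 (1.60% and 12.4% of 32851 promoters of the same length). ATGCAAA was in 1 of 8, that of Avil (4.12% of all), where it begins 15 bases before the start and, on the opposite strand, 115 bases before it. AAATCA was in 4 of 8, those of Avil, Gfi1b, Plcb2 and the downstream start of Dclk1 (12.4% of all). The capitals below mark AAATCA or its reverse complement in each sequence and, in Avil, also ATGCAAA and its reverse complement; these are matches of letters, not measured binding. Each sequence is given 5′ to 3′ on the strand of its gene: Avil at chr10:127000459-127000708 (plus), Gfi1b at chr2:28621983-28622232 (minus) and Plcb2 at chr2:118728439-118728688 (minus). The Avil window lies wholly, and the Plcb2 window mostly, inside the annotated span of the gene, so these starts are not the outermost ones.
Avil: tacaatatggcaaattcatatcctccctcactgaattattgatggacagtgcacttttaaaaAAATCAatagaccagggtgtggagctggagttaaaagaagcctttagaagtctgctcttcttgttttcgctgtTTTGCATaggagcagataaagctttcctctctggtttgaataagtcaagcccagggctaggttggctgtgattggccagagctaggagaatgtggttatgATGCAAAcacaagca
Gfi1b: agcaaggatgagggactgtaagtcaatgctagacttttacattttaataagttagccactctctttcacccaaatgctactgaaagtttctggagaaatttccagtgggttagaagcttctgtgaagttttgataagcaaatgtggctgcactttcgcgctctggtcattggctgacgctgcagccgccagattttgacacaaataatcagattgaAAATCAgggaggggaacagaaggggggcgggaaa
Plcb2: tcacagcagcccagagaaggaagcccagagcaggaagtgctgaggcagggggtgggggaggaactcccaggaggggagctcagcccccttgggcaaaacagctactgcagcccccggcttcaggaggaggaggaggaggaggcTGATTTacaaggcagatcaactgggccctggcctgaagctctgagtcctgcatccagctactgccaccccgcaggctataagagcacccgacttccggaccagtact

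The order of the libraries was nearly the same for all 8 genes. Knockout 1 was the highest knockout and floxed control 2 the lowest floxed control in 8 of 8. Knockouts 2 and 3 lay below every floxed control in 8 of 8. The share of all genes with either order was not counted, so neither is shown to be particular to these genes. The mean level of the 8, as log2 CPM centred on the 6 libraries, was -0.23, -0.74 and -0.61 in knockouts 1, 2 and 3 and 0.83, -0.015 and 0.76 in floxed controls 1, 2 and 3. Floxed control 2 was thus closer to knockout 1 than to the other floxed controls. Across the 6 libraries, Pearson correlations between pairs of the 8 genes ran from 0.832 (Gng13 with Dclk1) to 0.997 (Avil with Plcb2), with a median of 0.949 over 28 pairs. The genes share the libraries and their depth, and 6 points include the difference between groups, so the correlations only describe this order.

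The size of the difference depended on which libraries were compared. Between knockouts 2 and 3 and floxed controls 1 and 3, which leaves out the pair set apart on clock genes, log2 fold changes ran from -1.80 ± 0.22 (Dclk1) to -1.33 ± 0.23 (Cd24a). The pair left out was also the highest knockout and the lowest floxed control in 8 of 8 genes. Leaving it out was therefore bound to widen the difference between group means. In that comparison 7 of 8 genes passed over all genes by edgeR (5.64% of all genes were called lower), and Gfi1b did not (log2 -1.37 ± 0.41, adjusted p = 0.0803). Within the pair itself, knockout 1 minus floxed control 2, the difference in log2 CPM was between -0.75 (Gfi1b) and 0.42 (Dclk1), with Trpm5 at 0.094 and Pou2f3 at -0.19. Floxed controls 1 and 3 were the libraries high in lymphocyte markers and lowest in total counts. Each also lay above floxed control 2 in 8 of 8 genes, so leaving them out was bound to shrink the difference between group means. Without them, the fold changes ran from -0.89 ± 0.53 (Gfi1b) to -0.020 ± 0.36 (Dclk1). There 0 of 8 passed by edgeR (0.0675% of all genes called lower) and 1 had an unadjusted p under 0.05 (2.87% of all genes), with a single control library left. Without floxed control 2 alone, the lowest control for each gene, 7 of 8 passed (5.79% of all genes called lower). With all libraries thinned to the smallest total, the median of the 8 was -1.08. The part of lymphocytes, depth, clock phase and single libraries in the difference was not tested beyond these values.

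**Figure D2:**
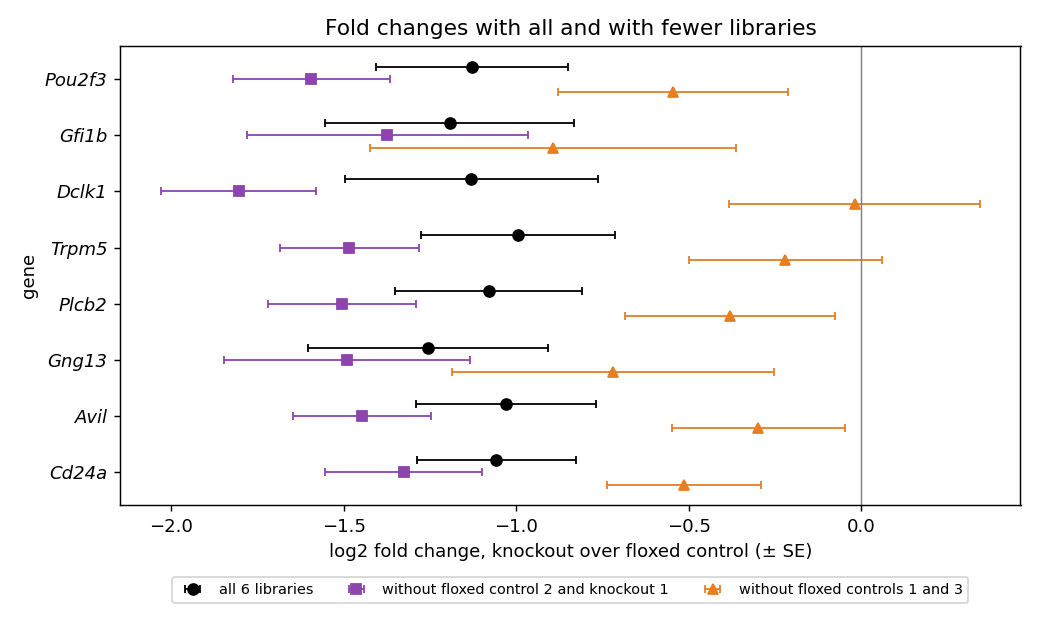
Log2 fold changes (knockout over floxed control, x axis; bars are SE) of the 8 tested genes with all 6 libraries (black circles), without floxed control 2 and knockout 1 (purple squares) and without floxed controls 1 and 3 (orange triangles). All values are negative, and for Dclk1 they run from -1.80 to -0.020.

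**Figure D3:**
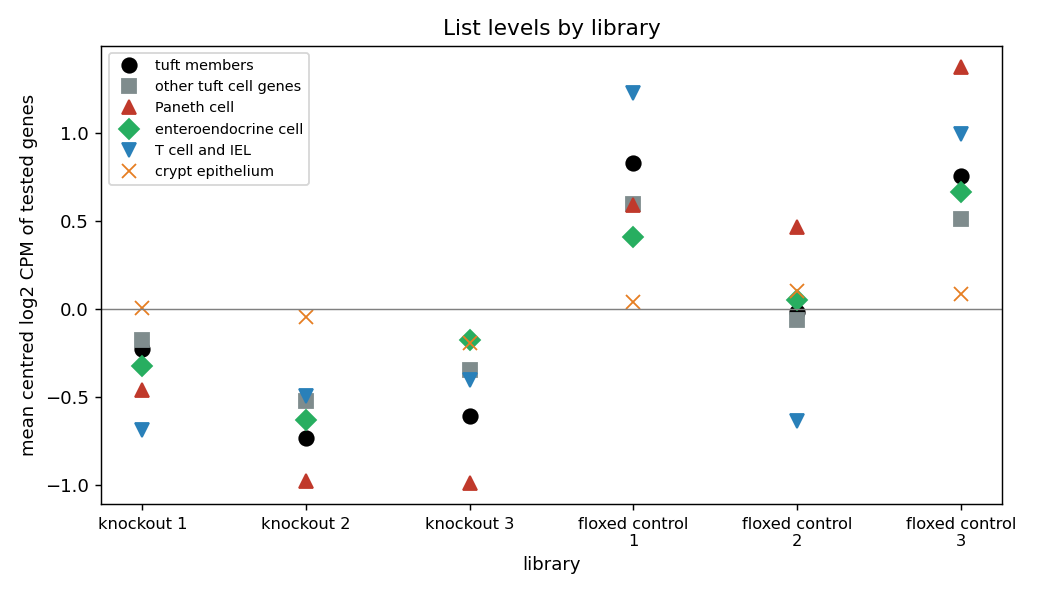
Mean centred log2 CPM of the tested genes of 6 lists (y axis) in each library (x axis). The tuft cell genes and the other tuft cell list are highest in floxed controls 1 and 3, and floxed control 2 lies near 0 for both; the crypt epithelium line averages 3 genes with negative and 8 with positive fold changes.

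Relative to Pou2f3 in the same library, which does not depend on scaling between libraries, the genes kept a narrower range than their CPM. Plcb2 had 1.12, 1.26 and 1.27 reads per Pou2f3 read in knockouts 1, 2 and 3 and 1.14, 1.07 and 1.25 in floxed controls 1, 2 and 3. From lowest to highest library this is a 1.18-fold range, while its CPM spanned 3.11-fold. Avil had 3.19 ± 0.26 reads per Pou2f3 read in knockouts and 2.89 ± 0.21 in floxed controls (SD, n = 3 each), and Trpm5 had 3.59 ± 0.15 in knockouts and 3.21 ± 0.40 in floxed controls. The groups overlapped for each of these ratios. Dclk1 had the widest range of the 7 ratios, 1.74-fold, with its lowest value of 1.98 in floxed control 2 and its highest of 3.44 in floxed control 1. Cd24a ran from 55.8 reads per Pou2f3 read in knockout 1 to 84 in knockout 2.

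**Figure D4:**
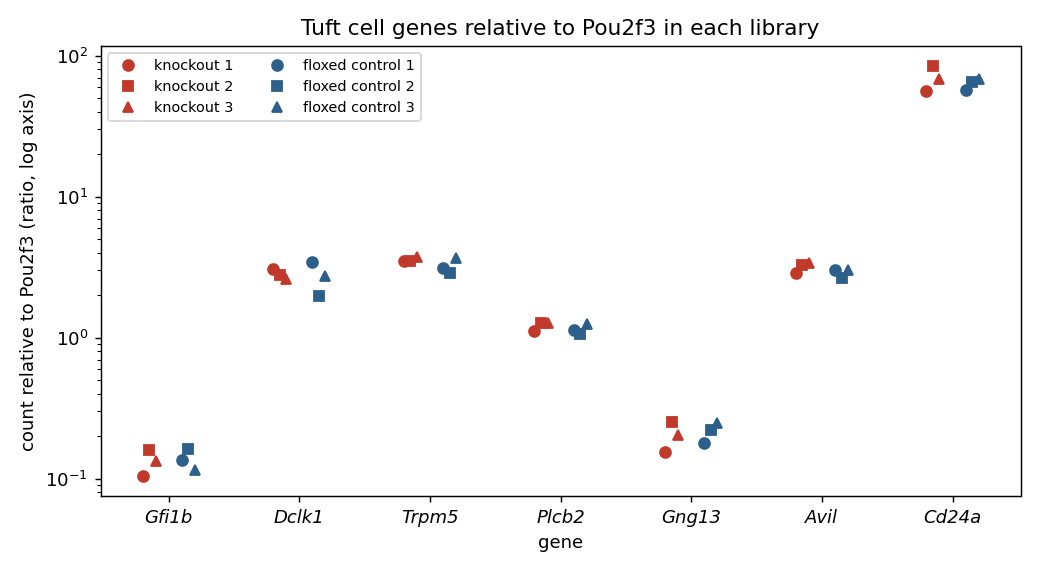
Counts of 7 tuft cell genes per Pou2f3 count (log axis) in each knockout (red) and floxed control (blue) library. The groups overlap for every gene, and Plcb2 has the narrowest range, from 1.07 to 1.27.

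Other taste-type signalling genes are less restricted to tuft cells. Of 21 listed, 14 were in the table and 11 tested; 10 log2 fold changes were negative, with a median of -0.20. By edgeR 0 passed over all genes, 3 were lower at an unadjusted p under 0.05 (9.63% of all genes), and 0 were called by DESeq2 (2.08% of all genes called lower). The 3 were Ffar3 (log2 -1.22 ± 0.35) and Ffar2 (log2 -0.89 ± 0.27), receptors for short-chain fatty acids, and Plcg2, a phospholipase C gamma (log2 -0.40 ± 0.15). Itpr3, the calcium release channel downstream of Plcb2 in taste cells, stood at 202.7 ± 50.2 CPM in knockouts and 220 ± 15.2 CPM in floxed controls (log2 -0.12 ± 0.20). Gnat3, the taste G protein gustducin, was too low to test: 0.0564, 0.107 and 0.0560 CPM in knockouts 1, 2 and 3 and 0.175, 0 and 0.985 CPM in floxed controls 1, 2 and 3. Sucnr1, the succinate receptor of tuft cells, was at 0.666 ± 0.205 CPM in knockouts and 0.739 ± 0.576 CPM in floxed controls.

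Transcription factors listed beside Pou2f3 and Gfi1b all had negative log2 fold changes. Of 12 listed, 9 were in the table and tested, with a median of -0.76; 0 passed by edgeR over all genes, 8 were lower at an unadjusted p under 0.05 (9.63% of all genes) and 2 were called lower by DESeq2 (2.08% of all genes). Spib, an Ets factor of tuft and M cells, stood at 16, 10 and 11.5 CPM in knockouts 1, 2 and 3 and at 34.5, 16.4 and 31.4 CPM in floxed controls 1, 2 and 3 (log2 -1.13 ± 0.28, DESeq2 adjusted p = 0.0170). Atoh1, which starts the secretory lineages, had a log2 fold change of -0.86 ± 0.21 (DESeq2 adjusted p = 0.0225), and Hmx3, a homeobox factor, -1.07 ± 0.32. Gfi1, the paralogue of Gfi1b that acts in goblet and Paneth precursors, had -0.75 ± 0.25, and Sox9 of crypt progenitors -0.51 ± 0.17.

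Of 41 further tuft cell genes, 38 were in the table and 36 tested, of which 33 were negative and 3 positive, with a median of -0.86. By edgeR 0 passed over all genes, 25 had a lower level with an unadjusted p under 0.05 (9.63% of all genes), and 10 were called lower by DESeq2 (2.08% of all genes). Pik3r5, a regulatory subunit of the G-protein-activated phosphoinositide 3-kinase, stood at 15.3, 8.26 and 11 CPM in knockouts 1, 2 and 3 and at 40, 18.9 and 29.5 CPM in floxed controls 1, 2 and 3 (log2 -1.35 ± 0.30, edgeR adjusted p = 0.119). Sh2d7, an adaptor, had a log2 fold change of -1.21 ± 0.29, and Rgs13, a regulator of G-protein signalling, -1.07 ± 0.29. Alox5ap of leukotriene synthesis had -1.04 ± 0.25 and Vav1, also a blood cell gene, -0.89 ± 0.23. The 3 positive members were Ptpn18, Cd47 and Hebp1, with log2 fold changes between 0.016 and 0.045. Chat, the acetylcholine-synthesising enzyme, stood at 0.719 ± 0.0378 CPM in knockouts and 0.841 ± 0.232 CPM in floxed controls.

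Genes of the type 2 circuit that Il25 acts on had a median of -0.36 over 9 tested of 12 in the table, 0 passing by edgeR or DESeq2 and 2 lower at an unadjusted p under 0.05 (9.63% of all genes). These 2 were Il2rg, the common cytokine receptor chain of lymphocytes (log2 -1.54 ± 0.53), and Il33, an alarmin (log2 -0.77 ± 0.31). Of the 9, 8 had negative log2 fold changes, and Areg was the 1 positive gene (log2 0.58 ± 0.47). Retnlb, a resistin-like protein of goblet cells, had a log2 fold change of -1.38 ± 0.67. Its groups overlapped, at only 0.054 to 1.77 CPM per library. Il17rb, the Il25 receptor subunit, stood at 2.21 ± 0.33 CPM in knockouts and 2.94 ± 1.73 CPM in floxed controls. Il13, the cytokine that expands tuft cells, was at 0 in every knockout and had 0.0656 CPM in floxed control 2, with 0 in floxed controls 1 and 3. Il4ra, its receptor subunit, had a log2 fold change of -0.36 ± 0.19.

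Per kilobase of exon, Cd24a was the most abundant of the 10 genes, at 157.1 ± 15.3 CPM per kb in knockouts and 327.1 ± 81.9 CPM per kb in floxed controls. Avil followed with 5.61 ± 1.19 CPM per kb in knockouts and 11.5 ± 3.78 in floxed controls. Trpm5 came next with 3.40 ± 0.94 CPM per kb in knockouts and 6.79 ± 2.31 in floxed controls. Pou2f3 averaged 1.97 CPM per kb in knockouts and 4.32 in floxed controls, Gng13 1.53 in knockouts and 3.69 in floxed controls, Dclk1 1.13 in knockouts and 2.48 in floxed controls, and Plcb2 1.11 in knockouts and 2.35 in floxed controls; in this order each overlapped the next over the libraries. Gfi1b was at 0.424 CPM per kb in knockouts and 0.977 in floxed controls.

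Per kilobase, the most abundant paralogue was above the tuft cell gene in the Trpm, Plcb, Gng, Gnb, villin, Gfi1 and Il17 families. Many other paralogues were below the tuft cell gene of their family. Il17d, in the family of Il25, averaged 1.55 CPM per kb, against 0.181 for Il25. Of 40 listed, 39 were in the table and 32 tested, with a median log2 fold change of -0.18, 25 negative and 7 positive. By edgeR and by DESeq2 0 passed over all genes, while 6 were lower and 1 higher at an unadjusted p under 0.05 (9.63% and 4.09% of all genes). Vil1, the villin of the enterocyte brush border, averaged 292.7 CPM per kb over the 6 libraries with a log2 fold change of -0.14 ± 0.20. Plcb3, a widely expressed phospholipase C, was at 118.5 CPM per kb (log2 0.24 ± 0.20), and the G-protein beta subunit Gnb2 at 114.1 CPM per kb (log2 -0.18 ± 0.20), in libraries where Gnb3 had a few reads. Gng12 and Trpm4 were at 43.6 and 14 CPM per kb, with log2 fold changes of -0.18 ± 0.17 and -0.20 ± 0.17. Gfi1, at 4.38 CPM per kb, was above Gfi1b, whereas Pou2f1 (0.984 CPM per kb, log2 -0.16 ± 0.24) and Dclk3 (1.19 CPM per kb, log2 -0.11 ± 0.32) averaged less than Pou2f3 and Dclk1. The smallest unadjusted p-values belonged to Gng4 (log2 -1.05 ± 0.31), Plcb1 (log2 -1.09 ± 0.35), Scin, an actin-severing protein (log2 -0.97 ± 0.31), Gfi1 and Trpm6, a magnesium channel that was higher in the knockouts (log2 0.67 ± 0.24).

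**Figure D5:**
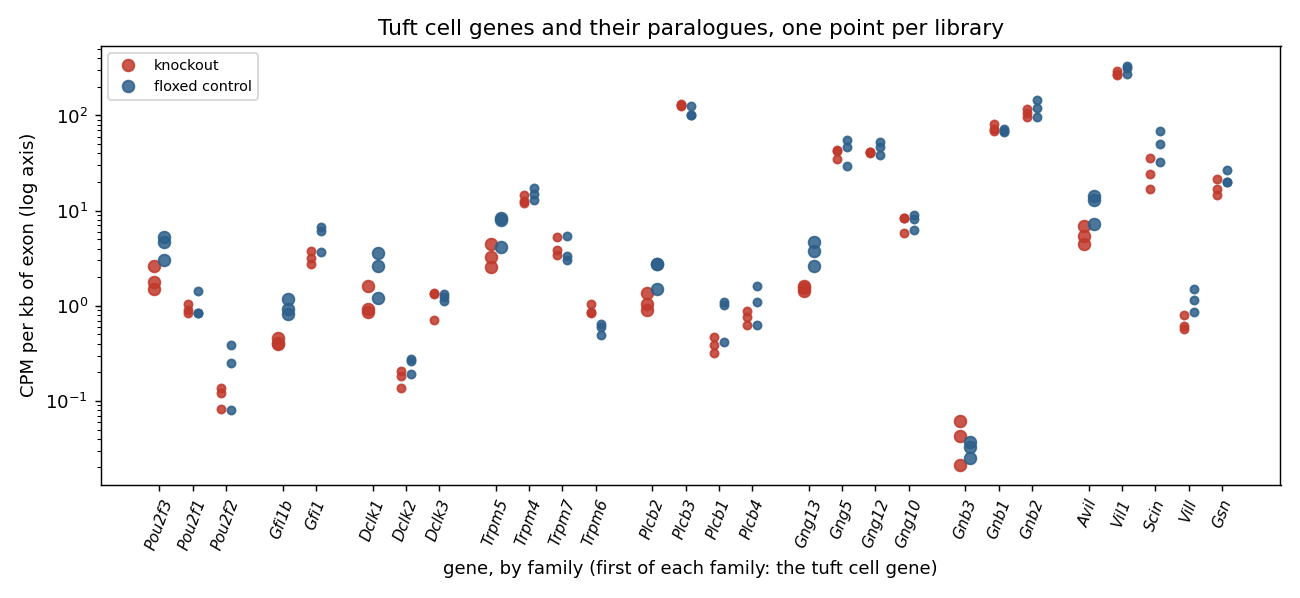
CPM per kilobase of exon (log axis) in knockout (red) and floxed control (blue) libraries, 1 point per library, for tuft cell genes (large points, first of each family) and paralogues. Vil1, Plcb3 and Gnb2 lie above the tuft cell genes shown in every library, and Gnb3 is the lowest gene plotted.

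Among 11599 other genes with an average log2 CPM of at least 1, the 8 whose log2 CPM over the 6 libraries was most like the mean of the tuft cell genes were Nrp2, Ero1b, Spib, Pitpnc1, Anxa6, Dbn1, Plxnd1 and Hs3st3b1. Their Pearson correlations ran from 0.991 to 0.998 over 6 libraries, and 240 genes were above 0.95, so this likeness was common. Of these 8, Spib was in the tuft cell lists. Nrp2, a semaphorin and VEGF co-receptor, stood at 2.14, 1.40 and 1.62 CPM in knockouts 1, 2 and 3 and at 6.20, 2.75 and 6.11 CPM in floxed controls 1, 2 and 3. The gene most like each single member was Spib for Avil, Anxa6 for Plcb2, Nucb2 for Cd24a, Man1a for Dclk1, Amigo2 for Trpm5, Gper1 for Gng13, Rnf185 for Gfi1b and the B cell gene Cd79b for Pou2f3.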

How the data were processed

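Libraries of 50 bp single-end mRNA reads were made from 6 crypt samples, per the labels' protocols. The build is mm10, per the submitters' processing notes; for aligner, counter and annotation, no source used here gives a name. The authors deposited estimated counts, 1 per gene and library, without normalisation. Per library 31.1% to 35.2% were not whole; all were rounded, although raw counts had been assumed. edgeR 4.0.16 (R 4.3.3) used filterByExpr, TMM, robust glmQLFit and glmQLFTest with Benjamini-Hochberg adjustment over 12943 genes. All 8 tested members passed the low-count cutoff in every library. SE is the absolute log2 fold change over the square root of F. Levels in log2 CPM used a prior count of 2. Exon lengths came from GENCODE M21 and coordinates from RefSeq GRCm38.p6. Alternatives used DESeq2 1.42.0 and limma 3.58.1; 3722 genes without a DESeq2 adjusted p were left so. The fit was tested on simulated data. No 2 libraries agreed within sampling noise (chi-square per degree of freedom 24.2 to 236). The precision of low genes is limited by their counts, and reads carried no molecular identifiers. Members and lists were chosen with earlier results of these data known. Named genes were all members, up to 5 genes of each list with the smallest p, the most abundant paralogues, and the 8 genes most like the members; Itpr3, Gnat3, Sucnr1, Chat, Il17rb, Il13, Per2, Epcam, Gata1, Klf1, Itga2b, Tsfm, Chtf18, Tssc4 and the 3 positive tuft cell genes were added after their values were seen.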

Additional observations from a re-analysis of the deposited data

How the results depend on the processing

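The 8 tuft cell genes kept a negative log2 fold change in all 136 values from 17 alternative settings, and 19 of these values passed an adjusted p of 0.05. The number of the 8 that passed was 5 by DESeq2 and 7 without floxed control 2 and knockout 1. With single libraries left out it ran from 0 to 7, the 7 being without floxed control 2, and it was 0 under the other settings run. Their median of -1.10 became -0.45 without floxed controls 1 and 3 and -1.49 without floxed control 2 and knockout 1; with single libraries left out it ran from -1.31 to -0.93. Over all genes, 2 passed, against 0 with DESeq2 size factors in edgeR, 323 by DESeq2 and 1 by limma-voom. Without a filter 67 passed, without floxed controls 1 and 3 it was 12, and without floxed control 2 and knockout 1 it was 920; with single libraries left out the count ran from 0 to 955. The settings without 2 libraries took out ones set apart on clock genes or lymphocyte markers in these data. These were also the higher floxed controls, or the lowest floxed control with the highest knockout, so the members' median was bound to shift. On library totals without TMM, chosen like thinning to the smallest library after seeing the data, 13 passed and the members' median was -0.90. The cause of these differences was not tested. With the replicate number as a block, 39 of all genes and 0 members passed, with a members' median of -1.06. Same-numbered libraries were correlated at -0.177, -0.272 and 0.0681, and 1 of 6 libraries correlated best with its own number. With 3 libraries per group, these values cannot show whether same-numbered libraries were paired. Without a filter, Gnb3 and Il25 could also be tested, with log2 fold changes of 0.42 ± 1.03 (edgeR adjusted p = 0.915) and -0.88 ± 0.86 (edgeR adjusted p = 0.731). Depth limits both, and Gfi1b and Gng13.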
